A study of Arabidopsis thaliana with 4 samples.

Results

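The genes described here are 10 genes of the Arabidopsis thaliana circadian clock: the 5 pseudo-response regulator genes PRR9, PRR7, PRR5, PRR3 and TOC1, the clock gene GIGANTEA (GI), and the evening complex genes LUX, BOA, ELF4 and ELF3. They were picked out by locus identifier, and each was found once among the 36251 gene models of the deposited expression table, of which 32122 hold an annotated transcript. RNA was sequenced from 2-week-old wild-type seedlings of 2 lines of the reference accession Columbia, named in the labels SALK Col-0 and Another Col-0. Each line gave 2 biological replicates, 4 libraries in all. All plants grew in soil in long days at 22 °C, and no transgene, mutation or treatment is named for either line. The labels used here name no hour of harvest, a limit for genes whose transcripts cycle over the day, so that a difference between lines and a difference in harvest hour cannot be told apart. The question was whether transcript levels of these genes differed between the lines.

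As background, the plant clock is a chain of repressors that act on each other in turn through the day. PRR proteins repress the morning MYB genes CCA1 and LHY and are produced in sequence from morning (PRR9) through midday and afternoon (PRR7, PRR5) to evening (TOC1). The evening complex, made of ELF3, ELF4 and the DNA-binding protein LUX, represses PRR9 and the growth genes PIF4 and PIF5 at night, and BOA is a close relative of LUX.

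Motifs of known clock factors were searched on both strands of the 300 bases upstream of 9 of the genes, read from the TAIR10.1 genome. Each window began at the outermost 5′ end, that of the deposited model or that of the RefSeq gene. The evening element (AAATATCT, known to be bound by CCA1 and RVE proteins) was in the windows of 3 of the 9 genes and in 5.74% of the windows of 24406 genes. The G-box (CACGTG, bound by PIF proteins among others) was in 4 of the 9 windows and in 7.11% of all windows. A LUX-binding site (GATACG or GATTCG) was in 2 of the 9 windows and in 14.2% of all windows, and a CCA1-binding site (AAAAATCT) in 0 of the 9 and in 8.13% of all. The stretches that hold the matches are shown 5′ to 3′ on the strand of the gene, with the matched motif in capitals, because they show which clock motifs lie near the starts of the genes compared here. They are PRR9 at chr2:19232353-19232492 (plus strand), PRR7 at chr5:642216-642241 (minus), TOC1 at chr5:24674802-24674829 (plus), LUX at chr3:17182839-17183007 (plus), BOA at chr5:24003791-24003862 (plus) and ELF3 at chr2:11058851-11058876 (plus).
PRR9: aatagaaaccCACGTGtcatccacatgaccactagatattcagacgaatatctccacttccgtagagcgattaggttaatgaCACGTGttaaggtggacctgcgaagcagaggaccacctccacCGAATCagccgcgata
PRR7: cccaccattaCACGTGtcagttcaaa
TOC1: aaatatcatgAGATATTTtctccaagat
LUX: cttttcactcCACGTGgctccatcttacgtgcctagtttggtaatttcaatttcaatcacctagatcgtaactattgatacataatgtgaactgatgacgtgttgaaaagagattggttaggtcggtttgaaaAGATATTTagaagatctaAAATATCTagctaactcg
BOA: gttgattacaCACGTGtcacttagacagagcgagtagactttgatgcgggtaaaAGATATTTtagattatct
ELF3: tgacattttaCGTATCctaaaagaaa
The PRR9 stretch holds 2 G-boxes and, nearer the gene, a LUX-binding site read on the opposite strand. LUX and its relative BOA each carry a G-box upstream of the evening element, with 2 evening elements in LUX and 1 in BOA. PRR5, PRR3 and GI held none of the 4 motifs in this window. For PRR5 the window lay upstream of the deposited model's 5′ end at 8358893, whereas the RefSeq gene has its 5′ end at 8358546. The bases between these ends were not searched. A match describes these letters only.

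Levels are FPKM, fragments scaled to transcript length and to the mapped fragments of the library, as deposited. Lines were compared with limma on log2(FPKM + 1), a scale that understates differences of low genes, over the 20634 models whose mean reached 1 FPKM or more, with Benjamini-Hochberg adjustment over all of them. A difference is given as Another Col-0 minus SALK Col-0 on that scale with its standard error (SE), and its threshold was an adjusted p of 0.05. All 10 genes passed the filter on low values, and 0 of them passed the threshold, as did 0% of all tested models by the same test. The lowest adjusted p was 0.199 over all models and 0.202 among the 10 genes (limma). The line was the only term of this fit, and the count depended on that choice. With the replicate number as a block, 4624 models (22.4%) and 4 of the 10 genes passed, though no label ties a number to a batch. At an unadjusted p under 0.05, 4 of the 10 genes were lower in Another Col-0 (6.45% of all tested models) and 1 was higher (10.2% of all). Both values of one line lay below both of the other for 8 genes. Of these, 6 were lower in Another Col-0 (20.8% of all) and 2 higher (26.2% of all). Over the annotated tested models, which hold all 10 genes, the shares were 23.2% lower and 29.3% higher. The median difference was -0.17 over the 10 genes and 0.02 over all tested models. Compared within same-numbered replicates, 6 genes were lower and 3 higher in both comparisons, and ELF3 turned sign. For all 10 genes the deposited lower and upper limits of the lines overlapped.

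**Figure D1:**
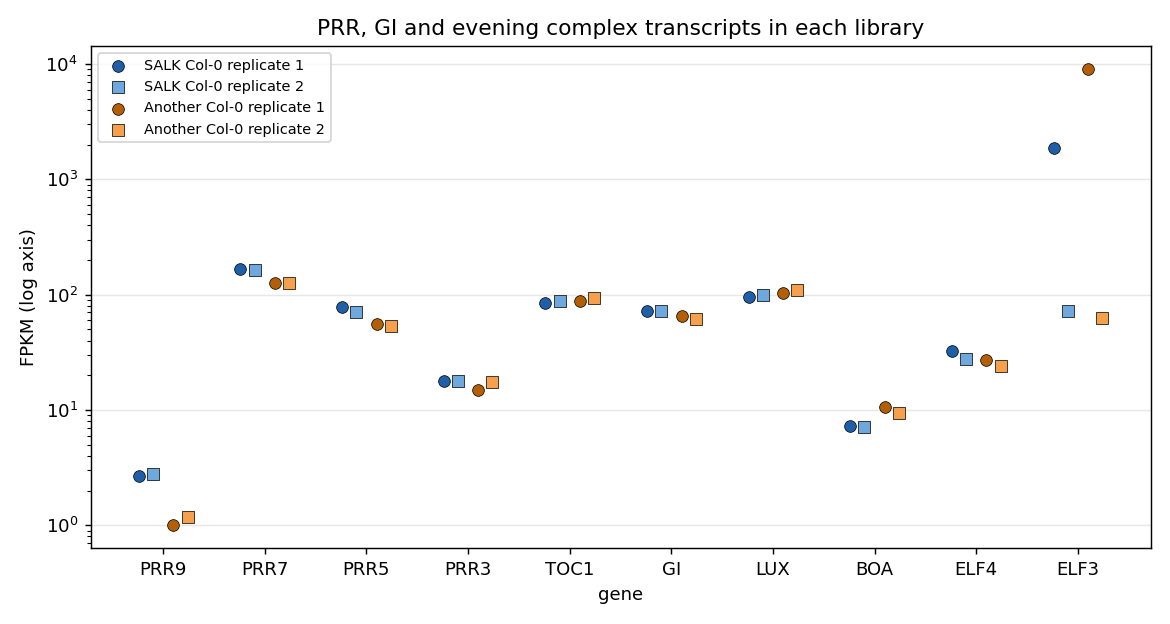
FPKM (logarithmic axis) of each of the 10 genes in each of the 4 libraries, 1 point per library, coloured by line. PRR9 is the lowest gene at 1.00 to 2.77 FPKM, PRR7 lies at 126 to 168 FPKM, and the replicate 1 points of ELF3 stand far above its replicate 2 points.

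PRR9, PRR7 and PRR5, the PRR genes of morning to afternoon, were all lower in both Another Col-0 libraries than in both SALK Col-0 libraries, although none passed the adjusted threshold. PRR9 (AT2G46790), the morning PRR repressor of CCA1 and LHY, lies on chromosome 2 at 19232646 to 19235094 (plus strand, TAIR10 coordinates of the deposited model). Its level was 2.68 FPKM in the first and 2.77 FPKM in the second SALK Col-0 replicate, compared with 1.00 and 1.18 FPKM for Another Col-0 (values follow replicate order throughout). The groups did not overlap: the means were 2.73 ± 0.0659 and 1.09 ± 0.126 FPKM (SD, n = 2 each), a level 2.51-fold higher in SALK Col-0. On the log2 scale the difference was -0.84 (SE 0.13, 95% interval -1.24 to -0.43; adjusted p = 0.203, limma). Its deposited limits were wide against these levels, from 0.176 to 5.34 FPKM in SALK Col-0 replicate 1 and from 0 to 2.43 FPKM in Another Col-0 replicate 1. In whole seedlings, fewer cells of a type and less RNA per cell cannot be told apart. With the fit restricted to the annotated models, the adjusted p of PRR9 was 0.0805 and 0 of the 10 genes passed, against 0.0597% of those models. In a fit to the 11836 annotated models that share no bundle (a stretch of overlapping models that Cufflinks resolves together) with another model, a choice made after seeing the data, PRR9 was the 1 of 7 genes tested that passed, with adjusted p = 0.0391, where 0.482% of the models were called lower.

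PRR7 (AT5G02810; chromosome 5, 637750 to 642026, minus strand), which with PRR9 represses the morning genes, had the highest level of the genes other than ELF3. It was at 168 and 162 FPKM in SALK Col-0, compared with 126 and 126 FPKM in Another Col-0. The lines did not overlap, at 165 ± 3.89 and 126 ± 0.0728 FPKM (SD, n = 2 each), 1.30-fold higher in SALK Col-0. The difference was -0.38 (SE 0.05, 95% interval -0.55 to -0.21; adjusted p = 0.202, limma). PRR5 (AT5G24470; chromosome 5, 8355951 to 8358893, minus strand), the afternoon repressor, was at 78.1 and 71.4 FPKM in SALK Col-0, compared with 55.9 and 53.1 FPKM in Another Col-0. Again both SALK Col-0 values were the higher ones, with means of 74.7 ± 4.78 and 54.5 ± 1.94 FPKM (SD, n = 2 each), a ratio of 1.37. The difference was -0.45 (SE 0.08, 95% interval -0.69 to -0.20; adjusted p = 0.211, limma).

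For PRR3 and TOC1, the later PRR genes, the 95% interval of the difference included 0. PRR3 (AT5G60100; chromosome 5, 24197998 to 24201404, minus strand), which is known to shield TOC1 protein from the F-box protein ZTL, was at 17.98 and 17.95 FPKM in SALK Col-0, compared with 15.0 and 17.4 FPKM in Another Col-0. Both Another Col-0 values were lower, but they differed from each other by more than the lines did, and the difference was -0.15 (SE 0.10, 95% interval -0.45 to 0.16; adjusted p = 0.555, limma). The PRR3 value is uncertain, because the whole model, 3407 bases, lies inside another annotated model on the same strand, in a bundle of 57 models, and its deposited limits ran from 0 to between 92.6 and 110 FPKM. TOC1 (AT5G61380; chromosome 5, 24674988 to 24678550, plus strand), the evening PRR that closes the sequence, was at 84.6 and 88.7 FPKM in SALK Col-0, compared with 87.3 and 93.1 FPKM in Another Col-0. These values overlapped, and the difference was 0.06 (SE 0.07, 95% interval -0.16 to 0.27; adjusted p = 0.777, limma), with the sign turning to -0.039 under quantile normalization.

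GI (AT1G22770; chromosome 1, 8061790 to 8067716, plus strand) encodes a large protein that stabilises ZTL and acts with FKF1 on CONSTANS transcription. Its level was 72.6 and 72.6 FPKM in SALK Col-0, compared with 64.8 and 62.0 FPKM in Another Col-0. The lines did not overlap, with both Another Col-0 values lower, and the difference was -0.19 (SE 0.05, 95% interval -0.37 to -0.02; adjusted p = 0.275, limma).

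Among the evening complex genes, BOA and LUX were the 2 genes with both Another Col-0 values above both SALK Col-0 values, and ELF4 lay in the opposite direction. LUX (AT3G46640; chromosome 3, 17183070 to 17185218, plus strand), the GARP-type DNA-binding subunit, was at 95.6 and 99.1 FPKM in SALK Col-0, compared with 104 and 110 FPKM in Another Col-0. The difference was 0.13 (SE 0.06, 95% interval -0.07 to 0.33; adjusted p = 0.431, limma), and 0.02 under quantile normalization. BOA (AT5G59570; chromosome 5, 24003888 to 24006289, plus strand), the LUX relative also called NOX, was at 7.30 and 7.14 FPKM in SALK Col-0, compared with 10.6 and 9.49 FPKM in Another Col-0. Its means were 7.22 ± 0.113 and 10.03 ± 0.771 FPKM (SD, n = 2 each), a level 1.39-fold higher in Another Col-0 with no overlap. The difference was 0.42 (SE 0.08, 95% interval 0.18 to 0.67; adjusted p = 0.217, limma). BOA shares 211 bases with a gene on the opposite strand, AT5G59580, which was at 0.921 to 1.24 FPKM, and reads of such pairs cannot be assigned by strand with a kit that does not mark it. ELF4 (AT2G40080; chromosome 2, 16734294 to 16734912, minus strand), the small subunit that binds ELF3, was at 32.7 and 27.4 FPKM in SALK Col-0, compared with 26.9 and 24.1 FPKM in Another Col-0. The lines did not overlap, yet the SALK Col-0 replicates stood 0.25 apart on the log2 scale, more than the line difference of -0.22 (SE 0.13, 95% interval -0.62 to 0.18; adjusted p = 0.493, limma).

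**Figure D2:**
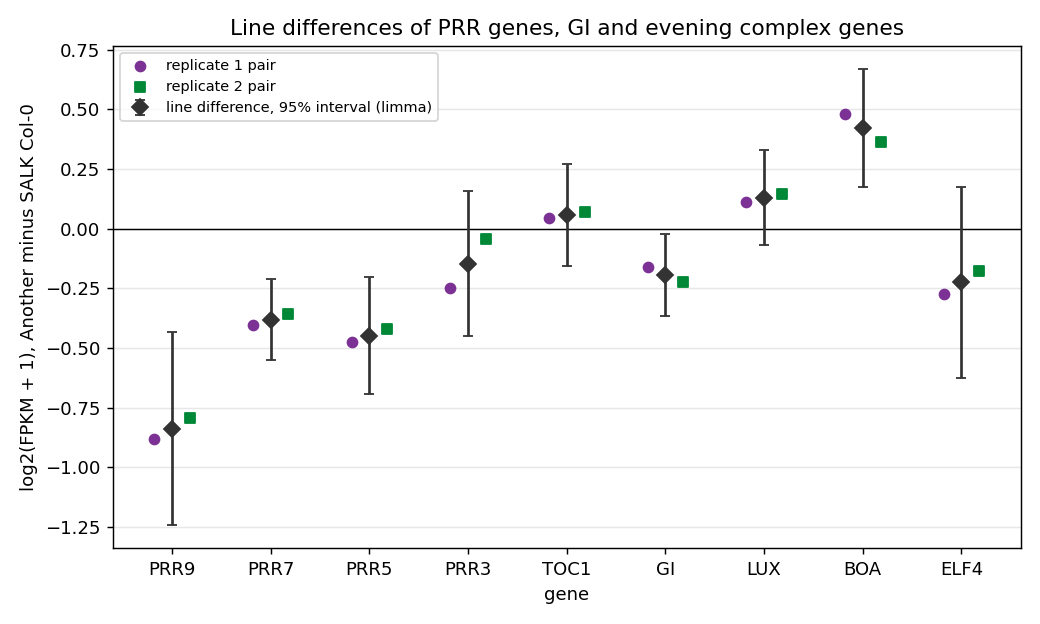
Difference between lines in log2(FPKM + 1), Another Col-0 minus SALK Col-0, with its 95% interval from limma (bars) and the values of the same-numbered libraries (small points), for the genes other than ELF3. The intervals of PRR9, PRR7, PRR5 and GI lie below 0, that of BOA lies above 0, and those of PRR3, TOC1, LUX and ELF4 cross it.

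ELF3 (AT2G25930; chromosome 2, 11059035 to 11063354, plus strand), the scaffold that joins ELF4 and LUX, cannot be compared from its deposited values. They were 1858 and 71.4 FPKM in SALK Col-0, compared with 9084 and 62.2 FPKM in Another Col-0. Both replicate 1 values were far above their own deposited upper limits, 145 and 148 FPKM, by 12.9 and 61.4 times, whereas both replicate 2 values lay within theirs. The difference was 1.05 (SE 3.49; adjusted p = 0.990, limma). With values outside their limits replaced by the midpoints of those limits, 87.2 and 86.1 FPKM in the replicate 1 libraries, it was -0.11 (SE 0.23; adjusted p = 0.926, limma), a setting chosen after seeing the data. ELF3 was not alone in this: 124 of the 32122 annotated models were above the upper limit in both replicate 1 libraries and within limits in both replicate 2 libraries, and 30 showed the reverse. The cause was not tested. The other 9 genes lay within their limits in all libraries.

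**Figure D3:**
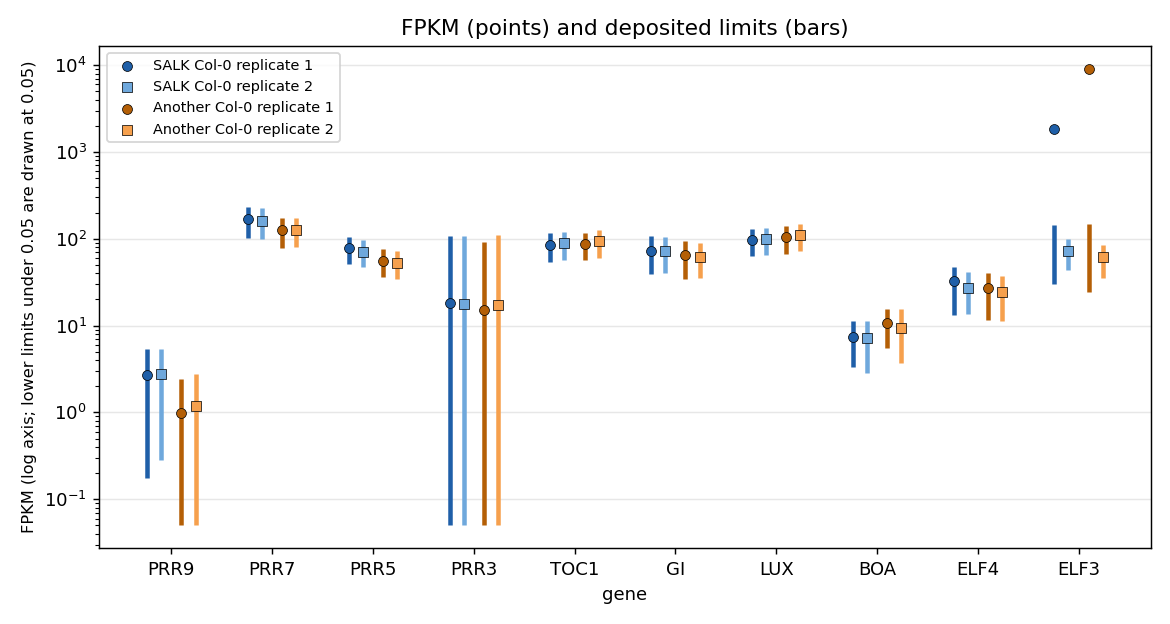
FPKM (logarithmic axis) of each gene in each library with its deposited lower and upper limits as bars. The replicate 1 points of ELF3 sit above their bars, the bars of PRR3 reach down to 0, and for the other genes the bars of the lines overlap.

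The order of levels, which FPKM makes comparable between genes by scaling for length, was led in both lines by PRR7, LUX and TOC1 and ended with ELF4, PRR3, BOA and PRR9. Without ELF3, each neighbour in the order was separated by its values in every library, with the exception of PRR5 and GI in SALK Col-0, whose values overlapped. This order rests on the point values alone. The deposited limits of PRR3 ran from 0 to between 92.6 and 110 FPKM. In every library they took in the levels of TOC1, PRR5, GI, ELF4, BOA and PRR9, and in SALK Col-0 also that of LUX. The limits of PRR7 and LUX overlapped in each library, as did those of LUX and TOC1. In Another Col-0 GI stood above PRR5, at 64.8 and 62.0 against 55.9 and 53.1 FPKM.

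Ratios between genes within a library do not depend on a common scaling factor of the library, and 8 were compared. The ratio of PRR5 to TOC1 was 0.923 and 0.805 in SALK Col-0, compared with 0.640 and 0.570 in Another Col-0, and that of PRR7 to TOC1 was 1.98 and 1.83 against 1.45 and 1.36. The PRR9 to TOC1 ratio was 0.0317 and 0.0313 against 0.0114 and 0.0126. PRR9, PRR7 and PRR5 were thus each lower relative to TOC1 in both Another Col-0 libraries. The PRR7 to PRR5 ratio was 2.14 and 2.27 against 2.26 and 2.38, so these genes kept overlapping proportions. Within the evening complex, the BOA to LUX ratio was higher in Another Col-0, at 0.102 and 0.0865 against 0.0764 and 0.0721, and the ELF4 to LUX ratio was lower, at 0.259 and 0.220 against 0.342 and 0.277. Of the 8 ratios, 6 were lower without overlap, 1 was higher and 1 overlapped. The pairs were set by hand and share genes with each other, so these counts repeat the single-gene differences. No share over other gene pairs was computed. Each non-overlapping ratio had an exact two-sided permutation p of 0.333, the smallest that 2 against 2 libraries allow.

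**Figure D4:**
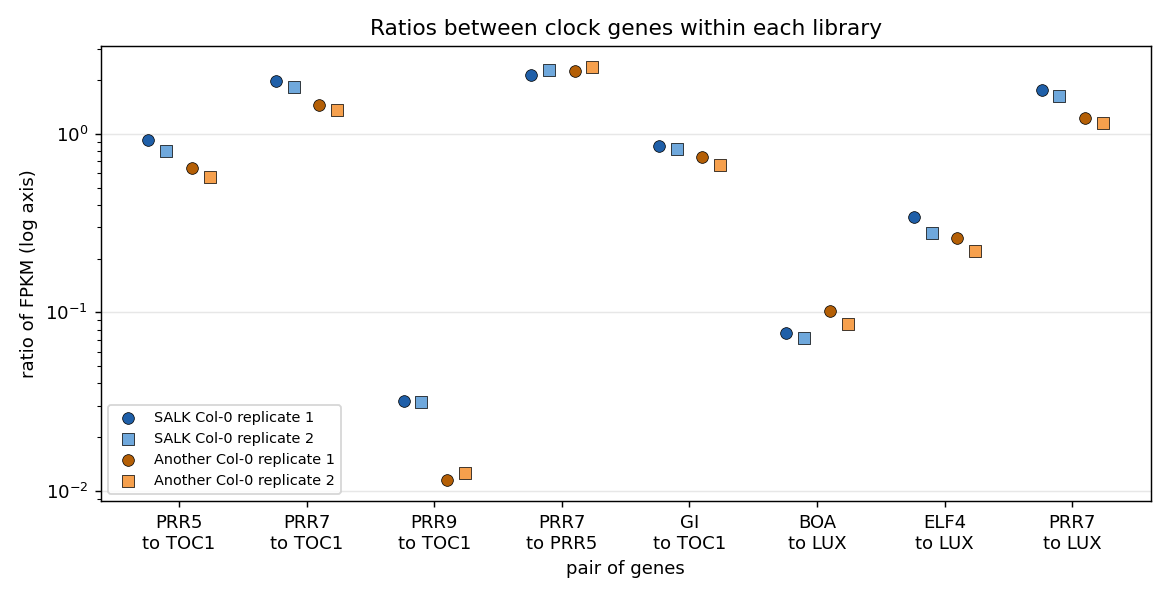
Ratios of FPKM between gene pairs within each library (logarithmic axis), 1 point per library, coloured by line. The PRR9, PRR7 and PRR5 to TOC1 ratios are lower in both Another Col-0 libraries and BOA to LUX is higher, with PRR7 to PRR5 overlapping.

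Genes that act with these 10 were taken from 5 further lists of 60 genes, of which 55 were tested and 0 passed (limma). At an unadjusted p under 0.05, 15 were lower in Another Col-0 (6.45% of all tested models) and 6 higher (10.2% of all). The counts without overlap below stand beside 20.8% lower and 26.2% higher of all tested models. Among the annotated tested models the shares were 23.2% and 29.3%. Of the morning MYB and LNK genes, which the PRR proteins repress or which activate PRR5 and TOC1, 12 of 14 were tested and 9 (75.0%) were lower in Another Col-0 without overlap and 1 (8.33%) higher, with a median difference of -0.35 against 0.02 over all models. RVE4, an activator of evening genes, was at 134 and 135 FPKM against 101 and 97.5 FPKM (difference -0.43, SE 0.05; adjusted p = 0.202, limma). The coactivator LNK1 was at 21.3 and 18.8 against 12.2 and 11.0 FPKM, LNK2 at 66.4 and 79.6 against 44.4 and 50.6, and the MYB gene RVE7 at 50.6 and 41.7 against 30.5 and 26.8. Each of these 4 was lower in both Another Col-0 libraries. The untested genes LHY and RVE3, below the filter, were higher in Another Col-0 without overlap. LHY was at 0.326 and 0.280 against 0.398 and 0.377 FPKM, and RVE3 at 0.0893 and 0.0951 against 0.311 and 0.224 FPKM. Among 8 tested of 9 targets of PRR proteins and the evening complex, 6 (75.0%) were lower and 1 (12.5%) higher without overlap (median -0.35). PIF4 and PIF5, the growth-promoting bHLH genes, were at 235 and 238 against 152 and 146 FPKM and at 164 and 170 against 126 and 121 FPKM. CDF3, a DOF repressor gene, was at 19.4 and 18.2 against 9.41 and 8.98 FPKM. The cold-response gene CBF2, one of a tandem family of similar genes, was the higher one, at 4.53 and 4.63 against 8.73 and 8.55 FPKM. CBF1 and CBF3 of this family were lower without overlap. CBF1 was at 2.45 and 2.63 against 2.20 and 2.11 FPKM. CBF3, below the filter and untested, was at 0.970 and 1.02 against 0.445 and 0.426 FPKM.

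Partners and regulators of the PRR and evening complex proteins were near the shares of all models, with 6 (24%) lower and 5 (20.0%) higher without overlap among 25 tested of 26 (median 0.01). TZP, a light-signalling nuclear protein, was at 5.64 and 5.27 against 2.76 and 2.73 FPKM, and TIC, a clock regulator, at 77.7 and 81.0 against 56.0 and 61.4 FPKM. CKB4, a casein kinase II subunit, was at 30.6 and 30.03 against 35.5 and 35.0 FPKM, and the photoreceptor PHYB at 16.3 and 17.2 against 19.4 and 20.4 FPKM. Of the ELF4-like relatives, 3 of 4 were tested and 2 were higher without overlap: EFL3 was at 2.60 and 2.56 against 3.33 and 3.54 FPKM and EFL2 at 41.1 and 29.5 against 56.5 and 41.4 FPKM, while EFL4 overlapped at 24.6 and 19.5 against 23.7 and 22.1. Clock outputs (7 of 7 tested) had 1 lower and 2 higher. CAT2, a catalase, was at 277 and 274 against 197 and 199 FPKM, the florigen gene FT at 1.05 and 0.962 against 3.63 and 3.08, and CO at 0.726 and 0.879 against 1.24 and 1.39. CAT3, in a model that pools a neighbouring gene's reads, overlapped at 3122 and 3574 against 3431 and 4048 FPKM. None of the tested genes named here passed the adjusted threshold, and their adjusted p lay between 0.199 and 0.944 (limma).

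**Figure D5:**
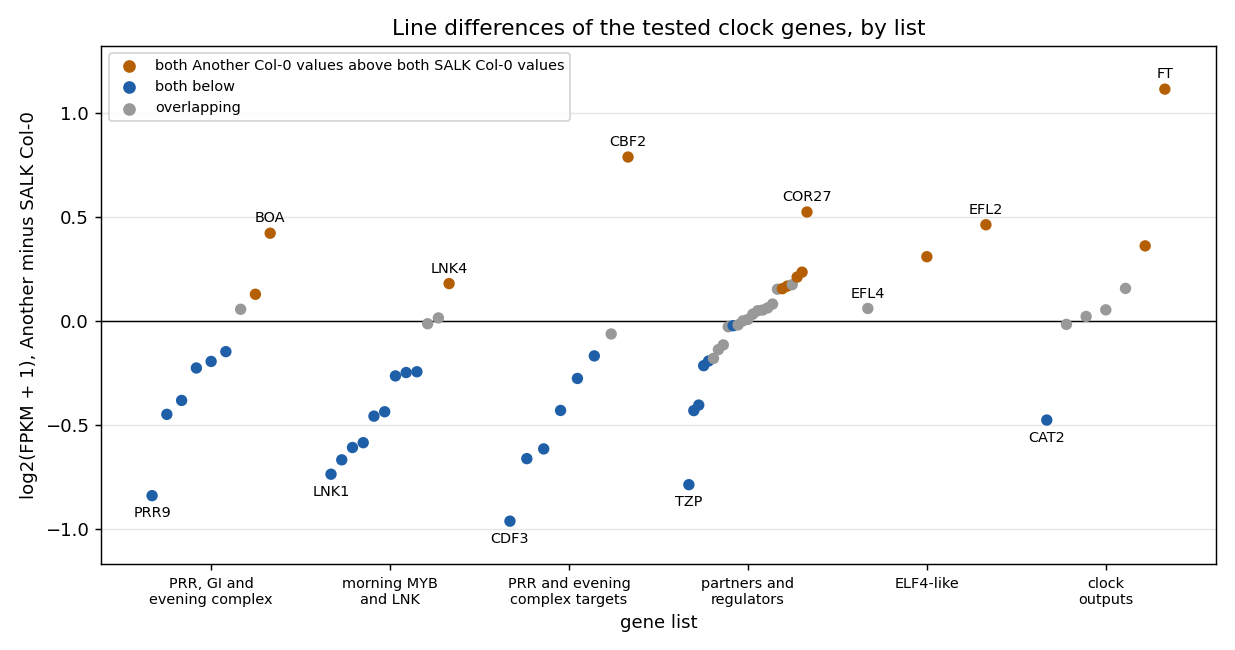
Difference between lines in log2(FPKM + 1), Another Col-0 minus SALK Col-0, 1 point per gene, coloured by whether the lines overlap. The first column holds the PRR genes, GI and the evening complex genes other than ELF3. The other columns hold each tested gene of the further clock lists. The morning genes and the PRR and evening complex targets have more points below 0 than above, and the partners are spread on both sides.

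Markers of other tissues are given beside these results. The summed level of 5 flower markers was 22.2 and 16.6 FPKM in SALK Col-0, compared with 47.3 and 40.3 FPKM in Another Col-0, with 4 of the 5 higher without overlap and none at 0 in all libraries. The petal and stamen gene AP3 stood below the filter at 0.141 and 0.119 against 0.346 and 0.281 FPKM. The summed level of 3 seed markers was 7.61 and 7.24 against 2.58 and 2.35 FPKM, nearly all of it from the storage protein gene CRA1 (7.29 and 6.86 against 2.28 and 2.04 FPKM). Without overlap 2 of the 3 were lower, and CRU3 was higher at 0.138 and 0.138 against 0.210 and 0.208 FPKM. The 3 leaf markers summed to 16284 and 16855 against 18291 and 17648 FPKM, as a check on the labelled seedling tissue. Of the 3, 1 was higher without overlap, RBCS1A, at 6626 and 6665 against 8586 and 7825 FPKM. Its model spans 291656 bases in a bundle of 96 models, and the LHCB1.1 model pools the gene AT1G29910, so these levels are uncertain. The 7 root markers summed to 16.4 and 18.4 against 19.5 and 20.6 FPKM, but 3 of them were lower without overlap and 2 higher, and the sum follows the aquaporin gene TIP2;3, at 6.27 and 7.14 against 10.7 and 11.3 FPKM. Their part in the differences of the clock genes was not tested. The libraries were similar in breadth, with 22495 to 22822 annotated models above 0 and medians of 15.2 to 15.6 FPKM over annotated models of at least 1 FPKM, while the sums of FPKM ran from 1076877 to 1762918. Read totals are not in the table used here, so the depth behind each value is unknown and no counting interval is given. Nothing in the labels says that replicates came from separate cultures, so p-values measure the spread between these libraries.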

How the data were processed

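RNA was extracted from whole seedlings, and TruSeq RNA V2 libraries were read as single ends of 101 nt, per the labels' protocols. The authors deposited FPKM for 36251 models, with lower and upper limits (other values, also in FPKM) and a status, per the file headers. Per the submitters' processing notes, TopHat, Cufflinks, Cuffdiff and the build TAIR10 were used; versions are not given in the sources used here. Models with a failed or too deep estimate (19) were left out, and the displaced annotation of 301 rows was read from the field holding the identifier.

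Here log2(FPKM + 1) was fitted with limma 3.58.1 (R 4.3.3), with a mean-variance trend and the line as the only term, over models whose mean reached 1 FPKM or more. Summaries used Python 3.11.15. The deposited models were matched to RefSeq genes of TAIR10.1: all 24407 single-gene models lay on the same chromosome and strand and overlapped, and 16.57% had the same ends, so upstream windows began at the outermost end. The upstream window of 1 gene is not reported here. The fit was tested on simulated data. Replicate numbers were not treated as pairing, since 2 pairs are too few and no label ties a number to a batch. The 10 genes and all lists were chosen with earlier results of these data known. Named genes were all 10 and, of each other clock list, the 4 with the smallest unadjusted p. CCA1, CBF1 and CBF3 were named besides these for their position or family, and LHY and RVE3 as the untested morning genes. Alternatives were the pseudocount, filter, scaling, trend, models fitted, a replicate block, left-out libraries and, added after seeing the data, 3 treatments of deposited limits and bundles.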

Additional observations from a re-analysis of the deposited data

How the results depend on the processing

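The count of models called, 0 by limma with 3439 at an unadjusted p under 0.05, depended on the models and terms in the fit. It was 11 with annotated models alone, 4624 with the replicate block, 8231 with annotated models and the block, and 196 with annotated models alone in their bundle, a setting added after seeing the data. Of the 10 genes, 0 were called in the main setting and 5 had an unadjusted p under 0.05. With the replicate block 4 were called (PRR9, PRR7 and PRR5 lower, BOA higher), where 22.4% of all models were called. With annotated models and the block 6 were called (adding GI and ELF4), where 44.7% of those models were called. With models alone in their bundle 1 of 7 was called, PRR9, where 0.482% of the models were called lower. Over the other clock lists 0 of 55 were called in the main setting. The counts were 20 of 55 (36.4%) with the block and 30 of 55 (54.5%) with annotated models and the block. With models alone in their bundle 4 of 39 were called, 2 higher and 2 lower in Another Col-0, beside 196 of all 11836 such models. The same-numbered libraries deviated together, with a Pearson correlation of 0.789 and a Spearman correlation of 0.844 across 18432 annotated models, but 2 pairs do not show that the numbers pair the samples.

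Leaving out each library in turn called 0 of the 10 genes each time. The difference then ranged from -0.90 to -0.78 for PRR9, -0.40 to -0.36 for PRR7, -0.51 to -0.38 for PRR5, 0.35 to 0.49 for BOA, -0.35 to -0.10 for ELF4, -0.25 to -0.04 for PRR3, 0.01 to 0.10 for TOC1, -0.22 to -0.16 for GI, 0.09 to 0.17 for LUX and -2.54 to 4.63 for ELF3. Settings that changed only the filter, the trend, the models fitted or the block left each difference unchanged by construction. Replacing values by midpoints could change ELF3 alone. Over 15 alternatives, 142 of 146 values of the 10 genes kept their direction, a count that includes these fixed values. The exceptions were TOC1 under quantile normalization (-0.039) and ELF3 without the second SALK Col-0 library (-1.29), without the first Another Col-0 library (-2.54) and with midpoints (-0.11). With a pseudocount of 0.1 the PRR9 difference was -1.26. The cause of these changes was not tested, and the low level of PRR9 and the shared locus of PRR3 carry wide limits for their size.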

Other observations

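PRR9 and PRR7 lie near morning genes of the same clock. Between PRR9 and CCA1, 10577 bases apart, the deposited table holds 3 annotated models: AT2G46800 at 53.4 and 64.3 FPKM in SALK Col-0 against 53.0 and 64.8 in Another Col-0, AT2G46810 at 15.8 and 11.1 against 10.8 and 8.37, and AT2G46820 at 730 and 811 against 811 and 863. The first overlapped between the lines, the second was lower and the third higher in Another Col-0, none past the adjusted threshold (adjusted p 0.488 to 1.00, limma). Between PRR7 and RVE4, 6665 bases apart, 4 annotated models lie, of which AT5G02811 and AT5G02815 are listed at 0 in all libraries. AT5G02820 was higher in Another Col-0, at 20.4 and 19.6 against 15.5 and 15.4 FPKM, and AT5G02830 was lower, at 7.02 and 6.99 against 8.79 and 8.14 FPKM. The lower values of PRR9 and PRR7 in Another Col-0 were thus not shared by all models in these intervals. The genes at their far ends were also lower in Another Col-0 without overlap. CCA1 was at 3.59 and 2.77 against 1.94 and 1.62 FPKM, and RVE4 at 134 and 135 against 101 and 97.5 FPKM. Models on the other side of PRR9 and PRR7 were not examined, and no cause was tested.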
